A study of Oryza sativa with 8 samples.

Results

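The data cover 4 rice genes of abscisic acid (ABA) signalling and breakdown in leaves with and without drought: *PP2C68* and *PP2C09*, which encode protein phosphatases of type 2C, *BZIP23*, which encodes a basic leucine zipper transcription factor, and *ABA8OX1*, which encodes an ABA hydroxylase. They are 4 of the 17905 genes that the array annotation pairs with a probe set, and each is read by 1 of the 57194 probe sets tested. The 4 genes were chosen by their measured log2 change in wild-type (WT) leaves under drought, so their values in WT and every comparison that uses WT arrays are given as descriptions, without a test. The log2 values of *OsGRAS23* overexpression (OE) leaves were not the measure of that choice, and the drought change in OE leaves was tested. Earlier results of these data were known when the genes were chosen, so the OE tests need not be independent of the choice.

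The groups were OE leaves under drought, OE leaves under normal conditions, WT leaves under drought and WT leaves under normal conditions. All were leaves of the *japonica* cultivar Zhonghua11 from plants 21 days old, grown in liquid culture, with 2 arrays per group and 20 seedlings behind each array. Drought was imposed by moving seedlings from the solution onto filter paper, and leaves were taken once WT leaves started to roll, whereas the normal leaves were taken before the transfer. Drought, handling and the time between the samplings therefore cannot be told apart. OE and WT seedlings were sampled by the same WT leaf sign. The promoter of the transgene and the number of OE lines are not given in the sources used here. No probe set was paired with *OsGRAS23*, so its overexpression was not analysed here.

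ABA is the hormone that closes stomata and turns on protective genes when a leaf loses water. It binds receptors of the PYR/PYL/RCAR family, and the bound receptor blocks the clade A PP2C phosphatases. These phosphatases otherwise keep some of the SnRK2 kinases (called SAPK in rice) inactive. The released kinases phosphorylate basic leucine zipper factors such as BZIP23, which act on promoters of ABA-responsive genes. ABA hydroxylases oxidise the hormone and start its breakdown. The transcripts of clade A phosphatases are themselves known to accumulate when ABA does.

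All values are log2 RMA values per probe set, so a difference of 1 is a 2-fold change, and levels of different probe sets cannot be set against each other. A call required an adjusted p under 0.05 in limma and at least a 2-fold change. Array medians lay between 4.80 and 4.90, and the 2 arrays of a group correlated at 0.987 to 0.991 over the probe sets. Of the 13 leaf marker names, 4 were matched to a probe set (*CAB2R*, *FBA1*, *RBCS* and *RCA*). Their summed log2 values were 51.6 to 52.7 in OE drought and 53.0 to 53.2 in OE normal leaves, and 51.7 to 52.2 in WT drought and 53.1 to 53.2 in WT normal leaves. Of the 8 root marker names, 5 were matched (*IDEF1*, *LSI1*, *LSI2*, *SCR1* and *SHR1*), and their summed values were 27.0 to 28.5 in OE drought and 30.4 to 34.4 in OE normal leaves, and 25.7 to 27.3 in WT drought and 32.3 to 36.3 in WT normal leaves. The root marker *LSI1*, a silicon transporter, read 9.43 and 9.95 in OE drought, 9.27 and 11.89 in OE normal, 9.20 and 9.28 in WT drought and 10.75 and 11.80 in WT normal leaves. The marker sums thus moved with drought in both lines, and their part in the results that follow was not tested. RMA values have no zero, so absence of a marker cannot be read from them. In bulk leaves, fewer cells of a type and less RNA per cell cannot be told apart.

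*PP2C68* had the widest drought difference of the 4 genes. Its protein is a clade A phosphatase, also called OsPP108, which lowers ABA sensitivity when overexpressed in *Arabidopsis*. It read 10.80 and 10.43 in OE drought leaves, against 6.24 and 7.43 in OE normal leaves. In WT it read 10.88 and 10.75 under drought, against 6.50 and 6.65 under normal conditions. The 4 drought arrays lay above the 4 normal arrays with a gap of 3.01, and the OE normal arrays were the farthest apart of any pair (SD 0.84, n = 2, against 0.26, 0.09 and 0.10 in OE drought, WT drought and WT normal leaves). In OE leaves it rose by 3.79 ± 0.33 (log2 difference ± SE), a 13.8-fold change (adjusted p = 0.00164, limma, n = 2 each). Ranked by this difference, its place was 32 of 57194 probe sets. The WT difference, on which the gene was chosen, was 4.24 ± 0.33, or 18.9-fold.

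*PP2C09* encodes another clade A phosphatase. It read 11.72 and 10.89 in OE drought leaves, against 8.20 and 8.58 in OE normal leaves. In WT leaves it read 11.58 and 11.51 under drought, against 8.37 and 8.33 under normal conditions. Drought and normal arrays were separated by 2.32, and the WT pairs were closer together (SD 0.05 and 0.03) than the OE pairs (SD 0.58 and 0.27). In OE leaves it rose by 2.92 ± 0.26, or 7.56-fold (adjusted p = 0.00164). The WT difference was 3.19 ± 0.26, or 9.15-fold. The probe set of *PP2C09* is of a class that can match more than 1 transcript of a gene, so its isoforms are not separated.

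*BZIP23* encodes a positive regulator of ABA responses and of drought and salt tolerance in rice. It read 12.41 and 11.71 in OE drought leaves, against 10.14 and 10.33 in OE normal leaves. In WT leaves it read 12.41 and 12.54 under drought, against 10.31 and 10.06 under normal conditions. The lowest drought array, an OE one, stood 1.38 above the highest normal array. In OE leaves *BZIP23* rose by 1.82 ± 0.23, or 3.53-fold (adjusted p = 0.00567), and the WT difference was 2.29 ± 0.23, or 4.89-fold. The OE call was lost when OE normal replicate 1 was left out (1.73, adjusted p = 0.0553).

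*ABA8OX1*, a cytochrome P450 gene, ran the other way. It read 8.16 and 8.04 in OE drought leaves, against 9.90 and 10.35 in OE normal leaves. In WT leaves it read 8.00 and 8.45 under drought, against 10.37 and 10.05 under normal conditions. The lowest normal array stood 1.46 above the highest drought array, and the lines were interleaved on both sides of that gap. In OE leaves it fell by 2.03 ± 0.22 on the log2 scale, 4.07-fold lower under drought (adjusted p = 0.00334). The WT difference was -1.99 ± 0.22, or 3.96-fold lower.

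In OE leaves 3 of the 4 genes were thus called higher and 1 lower, while 1.60% of all probe sets were called higher and 0.836% lower. In WT leaves, where the choice was made, 2.17% were called higher and 5.51% lower. Of the probe sets called higher in WT leaves, 54.6% were also called higher in OE leaves. Of those called lower in WT leaves, 13.9% were also called lower in OE leaves. For genes chosen by their WT change, these are the nearer shares. Of all calls in WT leaves 28.2% were higher, a share of 41.1% after quantile normalization and 21.2% after centring on array medians. The 4 genes kept their direction and call in OE leaves under either scaling.

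**Figure D1:**
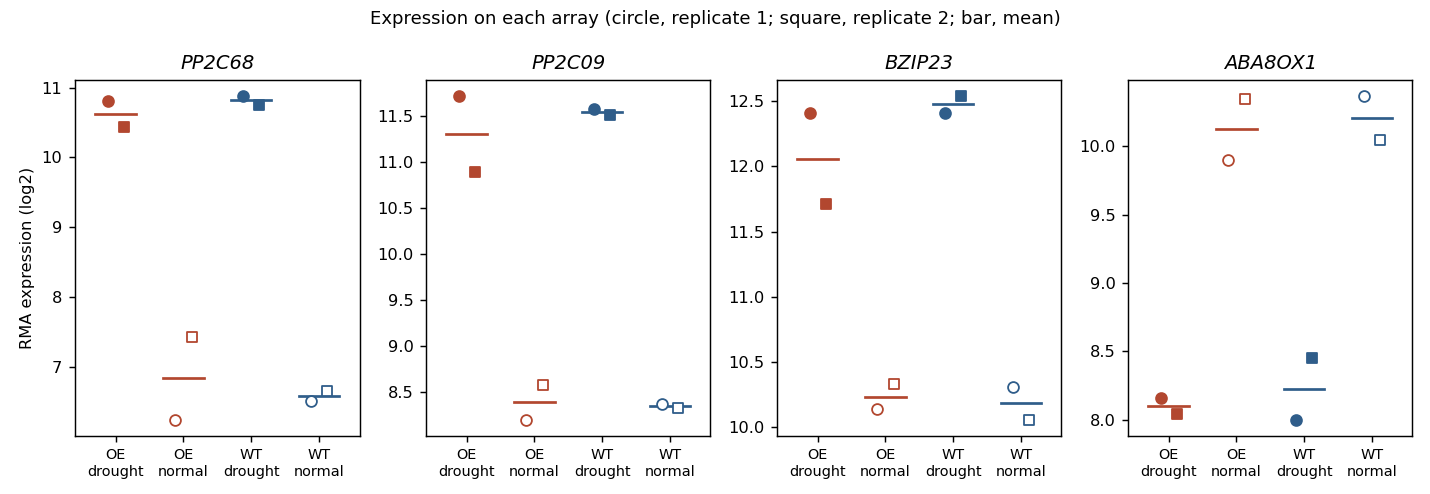
Log2 RMA value (vertical axis, own scale in each panel) of *PP2C68*, *PP2C09*, *BZIP23* and *ABA8OX1* on each of the 8 arrays, with groups along the horizontal axis, circles for replicate 1, squares for replicate 2 and bars for group means. Drought and normal arrays do not overlap in any panel; drought arrays are higher for the first 3 genes and lower for *ABA8OX1*.

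Differences between the lines were smaller than the drought changes, which in WT leaves were large by the choice of the genes. Under drought the OE minus WT difference was -0.20 ± 0.33 for *PP2C68*, -0.24 ± 0.26 for *PP2C09*, -0.42 ± 0.23 for *BZIP23* and -0.12 ± 0.22 for *ABA8OX1*. Under normal conditions it was 0.26 ± 0.33, 0.03 ± 0.26, 0.05 ± 0.23 and -0.08 ± 0.22 in the same order of genes. These differences use the WT arrays that chose the genes, so they are descriptions and were not tested. Over all probe sets, 0.0157% were called higher and 0% lower in OE under drought, and 0.0157% higher and 0.00350% lower under normal conditions. For the 3 genes that rose, the means ran from WT drought through OE drought and OE normal down to WT normal, and for *ABA8OX1* from WT normal through OE normal and WT drought down to OE drought. Neighbouring groups of the same condition overlapped in all of these orders except *BZIP23* under drought, where the lower WT array and the higher OE array both read 12.41.

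The OE change minus the WT change was -0.46 ± 0.47 for *PP2C68*, -0.28 ± 0.36 for *PP2C09*, -0.47 ± 0.33 for *BZIP23* and -0.04 ± 0.31 for *ABA8OX1*. With 1 array left out the value turned positive for *PP2C68* (up to 0.14), *PP2C09* (up to 0.14) and *ABA8OX1* (up to 0.19). These differences are descriptions, and the standard errors leave room for a larger or a smaller change in either line. Over all 57194 probe sets, 0 passed limma's adjusted threshold for a difference in drought change, and 3839 had an unadjusted p under 0.05. OE drought replicate 2 gave the lowest drought value for all 3 genes that rose. Over the 9 ABA genes called higher in OE drought leaves, it was the lowest of the 4 drought arrays for 5 (*PP2C68*, *PP2C09*, *BZIP23*, *PP2C06* and *PP2C30*). OE normal replicate 2 was the highest of the 4 normal arrays for 5 of the 9. The matching shares over all probe sets were not computed, so these counts are descriptions.

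**Figure D2:**
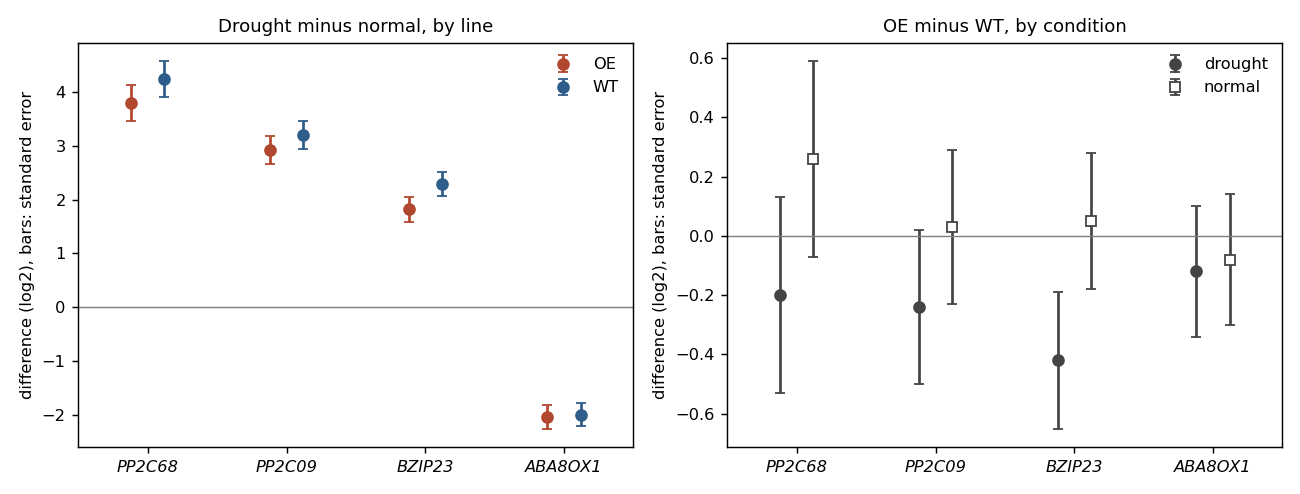
Log2 differences (vertical axis, bars for standard errors) of the 4 genes, with drought minus normal in OE and WT leaves on the left and OE minus WT under drought and normal conditions on the right, on a narrower scale. The drought changes run from -2.03 for *ABA8OX1* in OE leaves to 4.24 for *PP2C68* in WT leaves, while the line differences lie between -0.42 and 0.26.

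The rest of the ABA pathway was read from a list of 56 names, of which 25 were matched to a probe set, standing for 24 genes. Without the 4 chosen genes, 20 remained. Of these, 6 rose and 0 fell in OE drought leaves against OE normal leaves, where 1.60% of all probe sets were called higher and 0.836% lower. An unadjusted p under 0.05 was found for 10 of the 20 and for 17.0% of all probe sets, and the median log2 difference was 0.43, beside 0.02 over all probe sets. In WT leaves 5 rose and 1 fell, where 2.17% of all probe sets were called higher and 5.51% lower, with a median of 0.19, beside 0.08 over all probe sets. No gene of the 20 was called between OE and WT. Of all probe sets, 0.0157% were called higher and 0% lower in OE under drought, and 0.0157% and 0.00350% under normal conditions. With shares this small, no call among 20 genes says little about them. An unadjusted p under 0.05 was found for 2 of the 20 under drought, beside 7.06% of all probe sets. Under normal conditions it was found for 3, beside 4.1%.

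Upstream of the phosphatases, 1 receptor gene was matched to a probe set by name. *PYL5*, whose product binds ABA, averaged 9.95 ± 0.40 in OE drought and 9.98 ± 0.02 in OE normal leaves (SD, n = 2 each), and its difference was -0.03 in OE and 0.23 in WT leaves. The receptor thus overlapped between drought and normal leaves. Its gene was also matched by the list name *PYL11*, and the remaining receptor names on the list were not analysed here. *ZEP1*, the zeaxanthin epoxidase of ABA synthesis, differed by -0.14 in OE and -0.26 in WT leaves, and neither was called. *ABA8OX2*, the other hydroxylase gene measured, read 8.34 and 8.25 in OE drought leaves, against 8.23 and 7.55 in OE normal leaves. Its difference was 0.41 ± 0.28 in OE leaves (adjusted p = 0.538) and -0.11 ± 0.28 in WT leaves (adjusted p = 0.808), so the fall called for *ABA8OX1* was not called for it.

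Among the clade A phosphatases, 7 of the 10 names were matched to a probe set. Of the 5 that were not chosen, 2 were called higher in each line. Of all probe sets, 1.60% were called higher in OE and 2.17% in WT leaves. *PP2C30*, whose protein works with a receptor and the kinase SAPK2 in rice, read 12.72 and 11.95 in OE drought leaves, against 8.92 and 9.39 in OE normal leaves. It rose by 3.18 in OE leaves (adjusted p = 0.00197) and by 3.06 in WT leaves (adjusted p = 0.00106). *PP2C06* read 11.51 and 10.89 in OE drought leaves, against 9.63 and 9.65 in OE normal leaves. It rose by 1.56 in OE (adjusted p = 0.00728) and by 1.67 in WT leaves (adjusted p = 0.00234), and its OE call was lost without OE normal replicate 1 (adjusted p = 0.0615). The phosphatases without a call were *PP2C08*, *PP2C51* and *PP2C53*, with differences of 0.26, 0.45 and 0.25 in OE leaves and -0.43, 0.46 and -0.17 in WT leaves.

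The SAPK kinases were all matched to a probe set. Which of them the phosphatases hold inactive was not measured here. Of the 10, 4 were called higher and 0 lower in OE drought leaves, and 3 higher and 1 lower in WT drought leaves. Over all probe sets the shares were 1.60% higher and 0.836% lower in OE leaves, and 2.17% and 5.51% in WT leaves. *SAPK6* rose by 1.55 in OE (adjusted p = 0.00326) and by 2.00 in WT leaves (adjusted p = 0.000682). *SAPK7* rose by 1.22 (adjusted p = 0.0152) and 1.57 (adjusted p = 0.00241) in OE and WT leaves, and *SAPK2* by 1.04 (adjusted p = 0.0149) and 1.47 (adjusted p = 0.00172). Those kinases were called in both lines, whereas the next 2 were called in 1 line.

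*SAPK1* rose by 1.17 in OE leaves (adjusted p = 0.0172), while its WT difference was 0.50 (adjusted p = 0.107). The changes in the lines differed by 0.67, with an unadjusted p of 0.0393 and an adjusted p of 0.729, so they were not shown to differ. *SAPK5* fell by 1.01 in WT leaves (adjusted p = 0.00729). In OE leaves its difference was -0.80 (adjusted p = 0.0435), short of 2-fold. *SAPK8*, *SAPK9* and *SAPK10* are the class that ABA itself activates. Their differences were -0.04, 0.82 and 0.70 in OE leaves and -0.32, 0.62 and 0.53 in WT leaves, and none was called. *SAPK10* passed the p threshold in OE (adjusted p = 0.0397) and WT leaves (adjusted p = 0.0395) but was short of 2-fold. *SAPK3* differed by -0.30 in OE (adjusted p = 0.574) and -0.81 in WT leaves (adjusted p = 0.0372), also short of 2-fold. *SAPK4* differed by -0.13 in OE and -0.39 in WT leaves, without a call. The calls of 4 kinases rested on single arrays. *SAPK2* was not called in OE leaves without any 1 of the 4 OE arrays (adjusted p = 0.0518 to 0.108). *SAPK1* lost its call without OE normal replicate 1 (adjusted p = 0.145) or OE drought replicate 2 (adjusted p = 0.109), and *SAPK7* without OE normal replicate 2 (adjusted p = 0.0849) or OE drought replicate 2 (adjusted p = 0.0898). *SAPK5* lost its WT call without WT drought replicate 2 (adjusted p = 0.0526) and fell short of 2-fold without WT normal replicate 1 (-0.99) or after quantile normalization (-0.75).

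Downstream of the kinases, *BZIP66*, also named TRAB1, encodes a factor of the same class as *BZIP23*. It read 8.56 and 7.89 in OE drought leaves, against 7.57 and 7.77 in OE normal leaves. Its difference was 0.56 in OE leaves (adjusted p = 0.248) and 0.15 in WT leaves, without a call. *VP1*, a seed regulator that acts with such factors, differed by -0.08 in OE and 0.06 in WT leaves.

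**Figure D3:**
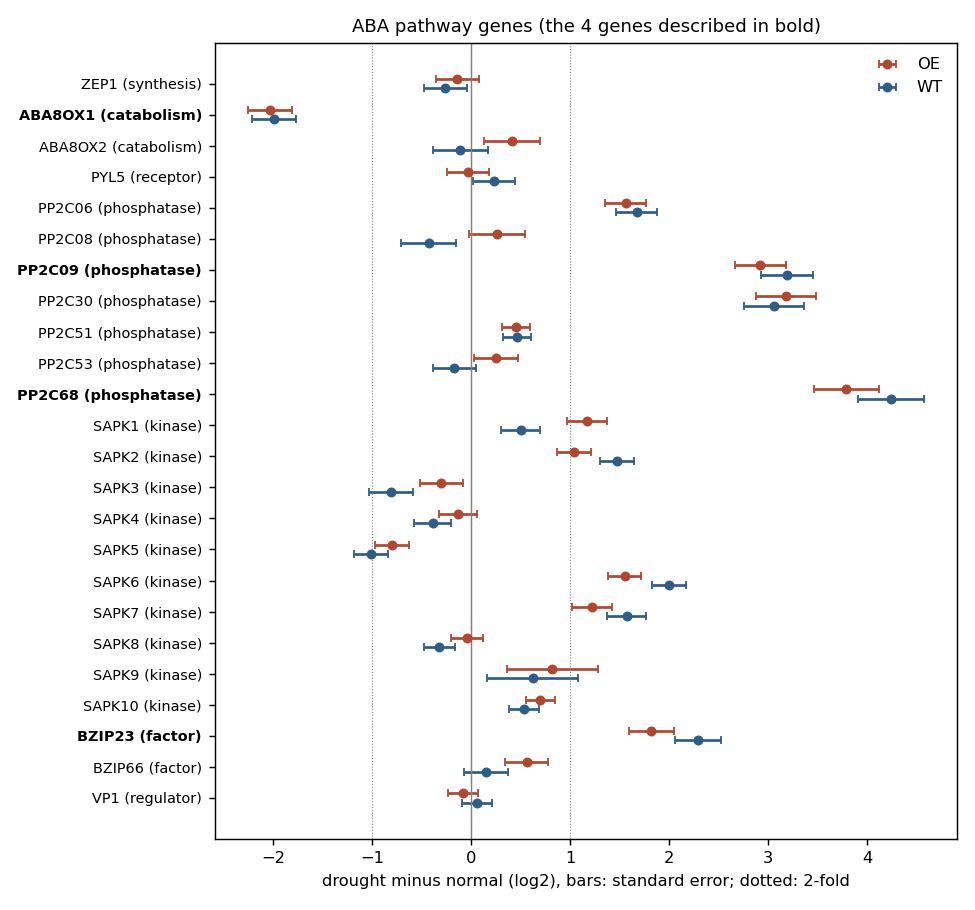
Log2 drought minus normal difference (horizontal axis) in OE and WT leaves for the 24 ABA pathway genes with a probe set, ordered by role, with bars for standard errors, dotted lines at 2-fold and the 4 chosen genes in bold. *PP2C68*, *PP2C30*, *PP2C09* and *BZIP23* lie farthest to the right in OE leaves, and *ABA8OX1* farthest to the left.

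The drought differences of the clade A genes were also set beside those of 48 other genes named PP2C that are not on the ABA list. The 5 clade A genes that were not chosen had a median difference of 0.45 and a range of 0.25 to 3.18 in OE leaves, and a median of 0.46 and a range of -0.43 to 3.06 in WT leaves. Of the 48 other genes, 2 rose and 0 fell in OE leaves, where 1.60% of all probe sets were called higher and 0.836% lower, and their median difference was 0.06 with a range of -0.92 to 1.95. In WT leaves 6 of the 48 rose and 7 fell, where 2.17% of all probe sets were called higher and 5.51% lower, with a median of -0.28 and a range of -1.60 to 2.09. No test was made of the contrast between these groups of genes. The other PP2C genes called higher in OE leaves were *PP2C34*, which rose by 1.58 (adjusted p = 0.00287), and *PP2C47*, which rose by 1.11 (adjusted p = 0.0148). The call of *PP2C47* was lost without any 1 of the 4 OE arrays (adjusted p = 0.0501 to 0.131). *PP2C59* had the most positive difference of the 48 in both lines, 1.95 in OE leaves without a call (adjusted p = 0.0895) and 2.09 in WT leaves, and *PP2C67* the most negative in WT leaves, where it fell by 1.60. The WT call of *PP2C59* was lost without WT normal replicate 1 or 2 or WT drought replicate 1 (adjusted p = 0.0704, 0.126 and 0.155).

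**Figure D4:**
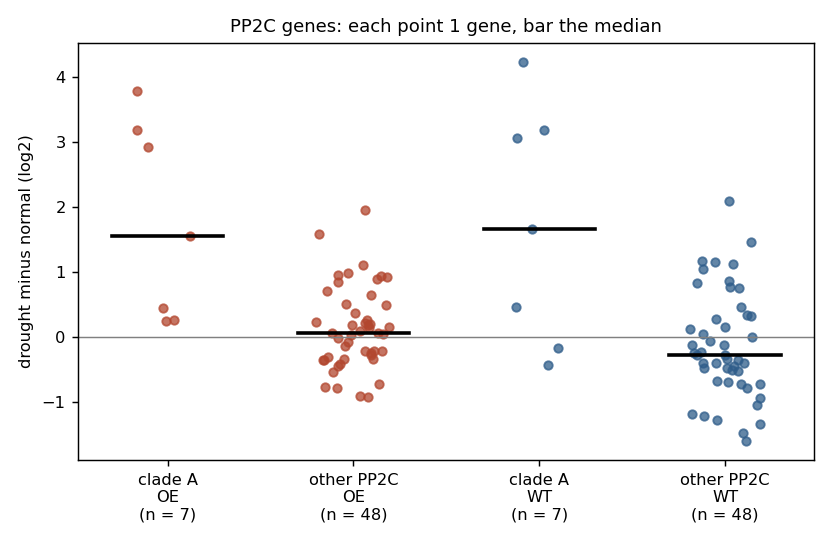
Log2 drought minus normal difference (vertical axis) of each PP2C gene in OE and WT leaves, with the 7 clade A genes and the 48 other PP2C genes in separate columns, a point per gene and a bar at each median. The clade A columns include the chosen *PP2C68* and *PP2C09*, whose height in WT leaves was fixed by the choice, and the other PP2C genes span -0.92 to 1.95 in OE and -1.60 to 2.09 in WT leaves.

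The 4 genes were also compared with each other and with 569 named genes by Pearson's r over the 8 arrays. Because the arrays fall into a drought and a normal cluster, r mostly records that split and is given as a description. The 3 genes that rose correlated at 0.98 to 0.99 with each other and at -0.96 to -0.93 with *ABA8OX1*. The gene most like *PP2C68* was *PP2C09* (0.991), followed by *HOX24* (0.990), *ACS2* (0.988), *PP2C27* (0.987) and *Hsf-21* (0.985). *HOX24* encodes a homeodomain leucine zipper factor and *ACS2* an enzyme of ethylene synthesis.

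*PP2C09* was most like *HOX24* (0.999), *PP2C06* (0.994), *BZIP23* (0.993), *Hsf-11* (0.993) and *PP2C30* (0.992). *BZIP23* was most like *Hsf-11* (0.994), *PP2C09* (0.993), *HOX24* (0.993), *HSP18.1* (0.993) and *JMJ706* (0.992), which include heat stress genes and a histone demethylase. *HOX24* stood among the 5 nearest of all 3 genes that rose. The genes most like *ABA8OX1* were *LOGL10* (0.978), *TBL15* (0.976), *TPP7* (0.971), *RCABP69* (0.971) and *BURP17* (0.970). *LOGL10* is named for cytokinin activation and *TPP7* encodes a phosphatase of trehalose synthesis.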

How the data were processed

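The deposited table held log2 values of 8 Affymetrix rice arrays. The submitters' processing notes name RMA and Partek 6.5. The settings are not given in the sources used here. Each array was hybridised with label made from 6 µg of leaf RNA, and the arrays of a group are called biological replicates in the labels. With 2 arrays per group, precision is limited by their number.

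The deposited values were fitted with limma 3.58.1 in R 4.3.3, with a mean for each of 4 groups, all 8 arrays in 1 fit, and p-values were adjusted after Benjamini-Hochberg across the 57194 probe sets tested. The fit had 4 residual degrees of freedom and a prior of 4.85. The 187 array controls were left out. An exact permutation test of 2 against 2 arrays cannot go below p = 0.333, so none was used. On simulated arrays for the OE drought comparison, 63 of 100 probe sets changed by 1.5 and 95 of 100 changed by 3 on the log2 scale were recovered among 57194, and 5 of 163 calls were false. The simulated noise was independent and normal, and only these probe sets were changed. The real comparison had 914 calls higher and 478 lower, so these rates need not hold for it. Lists and plots used Python 3.11.15 with pandas 2.3.3.

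The members and lists were chosen with earlier results of these data known. Genes were named from the platform annotation, updated through the RefSeq table of assembly ASM3414082v1, which was used for names only. It gave a gene ID to 29 of the 56 ABA names. Of all probe sets, 22436 had 1 gene, 95 had several and 34663 had none. A gene with several probe sets was given by the one with the highest mean over the arrays. The alias TRAB1 of *BZIP66* and the list of 48 other PP2C genes were added after the annotation was seen. The genes named for likeness were the 5 with the highest r among genes with a mean above 5 and an SD of at least 0.5. Alternatives were quantile normalization, centring on the median, removal of dim probe sets, another estimate of the spread, the compared groups alone, a replicate block, other probe set rules, no fold minimum and each array left out in turn.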

Additional observations from a re-analysis of the deposited data

How the results depend on the processing

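The drought changes of *PP2C68*, *PP2C09* and *ABA8OX1* in OE leaves were called under every alternative that could give a value, and *PP2C09* had none once probe sets of several transcripts were removed. With 1 array left out, the OE change was 3.19 to 4.38 for *PP2C68*, 2.51 to 3.33 for *PP2C09*, -2.25 to -1.80 for *ABA8OX1* and 1.47 to 2.17 for *BZIP23*, whose call was lost once. Leaving arrays out gave ranges of -1.05 to 0.14, -0.69 to 0.14, -0.82 to -0.12 and -0.26 to 0.19 for the OE change minus the WT change (*PP2C68*, *PP2C09*, *BZIP23*, *ABA8OX1*). For OE minus WT it gave, in the same order of genes, -0.38 to -0.02, -0.66 to 0.17, -0.77 to -0.07 and -0.34 to 0.10 under drought, and -0.34 to 0.85, -0.16 to 0.22, -0.07 to 0.18 and -0.31 to 0.14 under normal conditions. The WT change of *ABA8OX1* ranged from -2.21 to -1.76.

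Counts depended more on single arrays. With 1 array left out, 252 to 912 probe sets rose and 65 to 557 fell in OE leaves (914 and 478 with all arrays), and 691 to 2323 rose and 1239 to 4900 fell in WT leaves (1239 and 3153). Between lines, 7 to 20 were higher and 0 to 2 lower in OE under normal conditions (9 and 2), and 0 to 1 lower under drought (0). Of the 20 other ABA genes, 3 to 6 rose in OE leaves (6; 3 without OE normal replicate 1 or OE drought replicate 2) and 0 to 1 fell in WT leaves (1; 0 without WT drought replicate 2). Of the 48 other PP2C genes, 1 to 3 rose in OE leaves (2), and 3 to 6 rose (6) and 2 to 8 fell (7) in WT leaves.

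Without a fold minimum, 1209 of the 57194 probe sets rose and 764 fell in OE leaves, and 3676 rose and 6856 fell in WT leaves. Of the ABA genes 1 then fell in OE and 2 in WT leaves, and of the other PP2C genes 5 rose and 1 fell in OE leaves and 10 rose in WT leaves. Quantile normalization left 0 ABA genes lower in WT leaves and 1 probe set lower in OE under normal conditions. With those probe sets removed, 0 of the other PP2C genes rose in OE leaves and 3 fell in WT leaves, because both OE rises and 4 of the 7 WT falls were read by removed probe sets and had no value, and 1 probe set was lower in OE under normal conditions. A trended and robust spread gave 15 higher and 6 lower there, and 0 were lower with the filter on dim probe sets or the compared groups alone. Replicate numbers did not pair the arrays (correlations of replicate differences from -0.17 to 0.10). With the replicate block 0 were lower there too, and the OE drought counts were 915 higher and 440 lower. The replicate block lost no call of the 4 genes in OE leaves (adjusted p = 0.00355, 0.00357, 0.01 and 0.00653 for *PP2C68*, *PP2C09*, *BZIP23* and *ABA8OX1*). With the OE groups alone, no WT array entered the spread. The limma adjusted p was then larger, at 0.0172, 0.0171, 0.0295 and 0.0156 in the same order, and all 4 calls were kept. *PP2C48*, called higher in WT leaves (1.15), had -0.19 (adjusted p = 0.505) as the median of its probe sets. The median over probe sets also lost the WT calls of *PP2C14* and *PP2C73*. *PP2C14* went from 1.12 to 0.80, short of 2-fold, and *PP2C73* from -1.47 to -0.40 (adjusted p = 0.0941). The cause of the other shifts was not tested.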

Other observations

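*SAPK9*, a kinase of the ABA-activated class, read higher on replicate 2 than on replicate 1 in each group. The arrays gave 7.74 and 8.57 in OE drought, 6.88 and 7.78 in OE normal, 7.37 and 8.29 in WT drought and 6.70 and 7.72 in WT normal leaves. With the replicate number as a block, its drought difference had an adjusted p of 0.0338 in OE leaves (0.82) and 0.0341 in WT leaves (0.62), against 0.426 and 0.358 without the block, and it stayed short of 2-fold. Over all 57194 probe sets, 22 (0.0385%) differed by more than 0.5 in the same direction between the replicate numbers of all 4 groups, and *SAPK9* was the only 1 of the 24 ABA genes among them. It was singled out for this shift after its values were seen. The block removes just such a shift from the spread, so its lower adjusted p follows from the choice. No drought change is read from it, and replicate numbers did not pair the arrays over all probe sets.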
